A study of Caenorhabditis elegans with 6 samples.

Results

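UDP-glycosyltransferases and glutathione S-transferases are the enzymes of conjugation, the step in which a cell joins a foreign or spent molecule to a sugar or to glutathione so that it dissolves in water and can be pumped out. The ugt genes encode membrane enzymes that take the sugar from a UDP-sugar, glucuronic acid in mammals and, in nematodes, often glucose. The gst genes encode soluble enzymes that join the thiol of glutathione to reactive compounds, gstk genes encode the kappa class of organelles, and gsto genes encode the omega class, which also reduces mixed disulfides. In Caenorhabditis elegans the intestine is regarded as the main organ of detoxification, and many genes of these families answer to the stress regulator SKN-1.

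The genes described here are the rows of a count table whose sequence name carries, in the RefSeq gene table of assembly WBcel235, a symbol of ugt, gst, gstk or gsto with a number. They were 107 of 14605 worm gene rows, with 63 ugt, 39 gst, 2 gstk and 3 gsto genes. RefSeq names 116 such genes, and the other 9 were not analysed here (ugt-3, ugt-40, ugt-42, ugt-56, gst-14, gst-18, gst-25, gst-34 and gst-37). All of them are protein-coding. The naming rule itself reads no measured value, but the families were picked with earlier results of these data known. The coding length ran from 1449 to 1674 bases in ugt genes and from 522 to 762 bases in gst genes, with a median of 7 exons in the former and 2 in the latter.

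RNA was read from sorted pools of 500 cells of L1 larvae, 3 intestinal and 3 non-intestinal, the first larval stage. The labels call the 3 of a group biological replicates. Per the series title the cells of both groups were 4N, that is with doubled DNA, and per the labels the non-intestinal cells were those that divide in this stage. Animals of both groups carried the transgene ccyIS27, in which the promoter of the intestinal gene elt-2 (elt-2p) drives mCherry-PH and, after a P2A peptide, H2B-mCherry, both red reporters, and no treatment is named. The libraries followed an adapted CEL-seq protocol, which amplifies RNA by in vitro transcription and reads transcript 3′ ends.

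The libraries held between 1222704 and 21040813 counts of worm genes, and both replicates numbered 3 were the shallowest. Levels are given as CPM, counts scaled to a common total with TMM-scaled library sizes. The label of the sort was checked on 8 intestinal markers, among them elt-2 and the brush border actin act-5, whose summed level was 6213 to 7369 CPM in intestinal and 54.4 to 202 CPM in non-intestinal libraries. Of these markers, 7 of 7 tested were called higher, and their mean non-intestinal level was 2.26% of the intestinal one. Markers of several other cell types were read in both groups, so the intestinal libraries also held transcripts listed here for other cells. Summed levels in non-intestinal libraries were 726 to 882 CPM for 8 germline markers, against 12.5 to 65.5 CPM in intestinal ones. They were 1410 to 3720 against 781 to 2164 CPM for 8 muscle markers and 368 to 536 against 260 to 869 CPM for 8 neuronal markers. In these muscle and neuronal sums the groups overlapped. For 8 epidermal and seam markers the sums were 360 to 442 against 48.9 to 143 CPM. For 4 pharyngeal markers they were 721 to 953 against 31.3 to 581 CPM. Of these lists, 7 germline markers were called lower in intestinal libraries, 0 muscle and 0 pharyngeal markers were called either way, 1 neuronal marker was called higher, and 1 epidermal marker was called higher and 1 lower. In each of the germline, muscle and epidermal lists 1 gene had 0 counts in every intestinal library (nos-2, myo-3 and sqt-3), and the others had counts there. The part of these other cells in the differences below was not tested, and in pooled cells a smaller number of cells with a transcript and less transcript per cell cannot be told apart.

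The only comparison of the design sets intestinal against non-intestinal libraries. Each gene was tested by edgeR's quasi-likelihood F test across all genes, and a gene was called at a Benjamini-Hochberg adjusted p under 0.05. As background, 1246 of 9203 tested genes were called higher in intestinal cells (13.5%) and 703 were called lower (7.64%). Over all worm gene rows, tested or not, these are 8.53% and 4.81%. The split moved with the scaling, as 63.9% of calls were higher under TMM and 44.3% under library totals alone, where the median log2 fold change of all tested genes was −0.84 in place of −0.335.

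Both large families were higher in intestinal cells as summed levels and in many single genes. The 63 ugt genes together reached 2165, 1898 and 1216 CPM in intestinal replicates 1, 2 and 3, against 109, 95.3 and 154 CPM in the non-intestinal replicates. The 39 gst genes together reached 3924, 2832 and 2576 CPM, against 245, 552 and 274 CPM. In neither family did the groups overlap. The mean was 1760 ± 489 against 120 ± 30.9 CPM for ugt genes and 3111 ± 716 against 357 ± 169 CPM for gst genes (SD, n = 3 each), ratios of 14.7 and 8.72. The summed non-intestinal level was thus 6.79% of the intestinal level for ugt genes and 11.5% for gst genes, beside 2.26% for the intestinal markers.

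**Figure D1:**
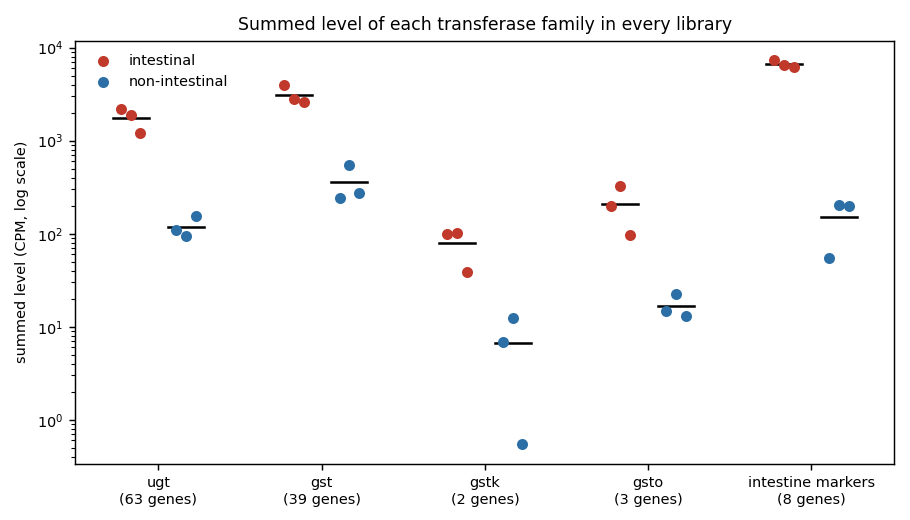
Summed level of each family and of 8 intestinal markers in every library, in CPM on a log scale. Points are the 3 libraries of each group and black lines are group means. Intestinal libraries lie above non-intestinal ones in each family, with ugt sums of 1216 to 2165 against 95.3 to 154 CPM.

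Gene by gene, 24 of 63 ugt genes were called higher in intestinal cells (38.1%) and 0 lower, where 8.53% and 4.81% of all gene rows were called. At an unadjusted p under 0.05, 0 ugt genes were lower. DESeq2 called 29 of the 63 ugt rows, tested or not, higher and 0 lower. Over all genes it called 18% of the 10309 it tested higher, a share with another denominator. Of 39 gst genes, 11 were called higher (28.2%) and 1 lower, gst-41. Of the gstk and gsto genes, gstk-1, gsto-1 and gsto-2 were called higher. A filter on low counts left 42 ugt, 27 gst, 2 gstk and 2 gsto genes for testing. Of the 42 ugt genes, 15 had no non-intestinal library at the filter's minimum of 0.915 CPM and so entered through their intestinal level alone. This held for 0 of the 27 gst genes. The filter asks for 3 libraries at this minimum, and fewer than 3 non-intestinal ones reached it for 34 ugt and 15 gst genes. Those genes passed only with the help of intestinal libraries. In all 6 libraries the minimum was reached by 6 ugt and 9 gst genes, of which 3 and 5 were called. Among tested genes the median log2 fold change was 4.51 in ugt and 2.16 in gst, against −0.335 over all that were tested. Without a filter it was 4.28 over all 63 ugt genes and 2.19 over all 39 gst genes, against −0.35 over all gene rows, and 24 ugt and 13 gst genes were called higher, where 9.85% of all gene rows were. Of these 24 ugt genes 22 were also called with the filter, since ugt-32 and ugt-52 lost their calls without it (adjusted p = 0.075 and 0.069) and ugt-2 and ugt-34 were called. Under library totals alone the medians of the tested genes were 4.04 and 1.62.

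**Figure D2:**
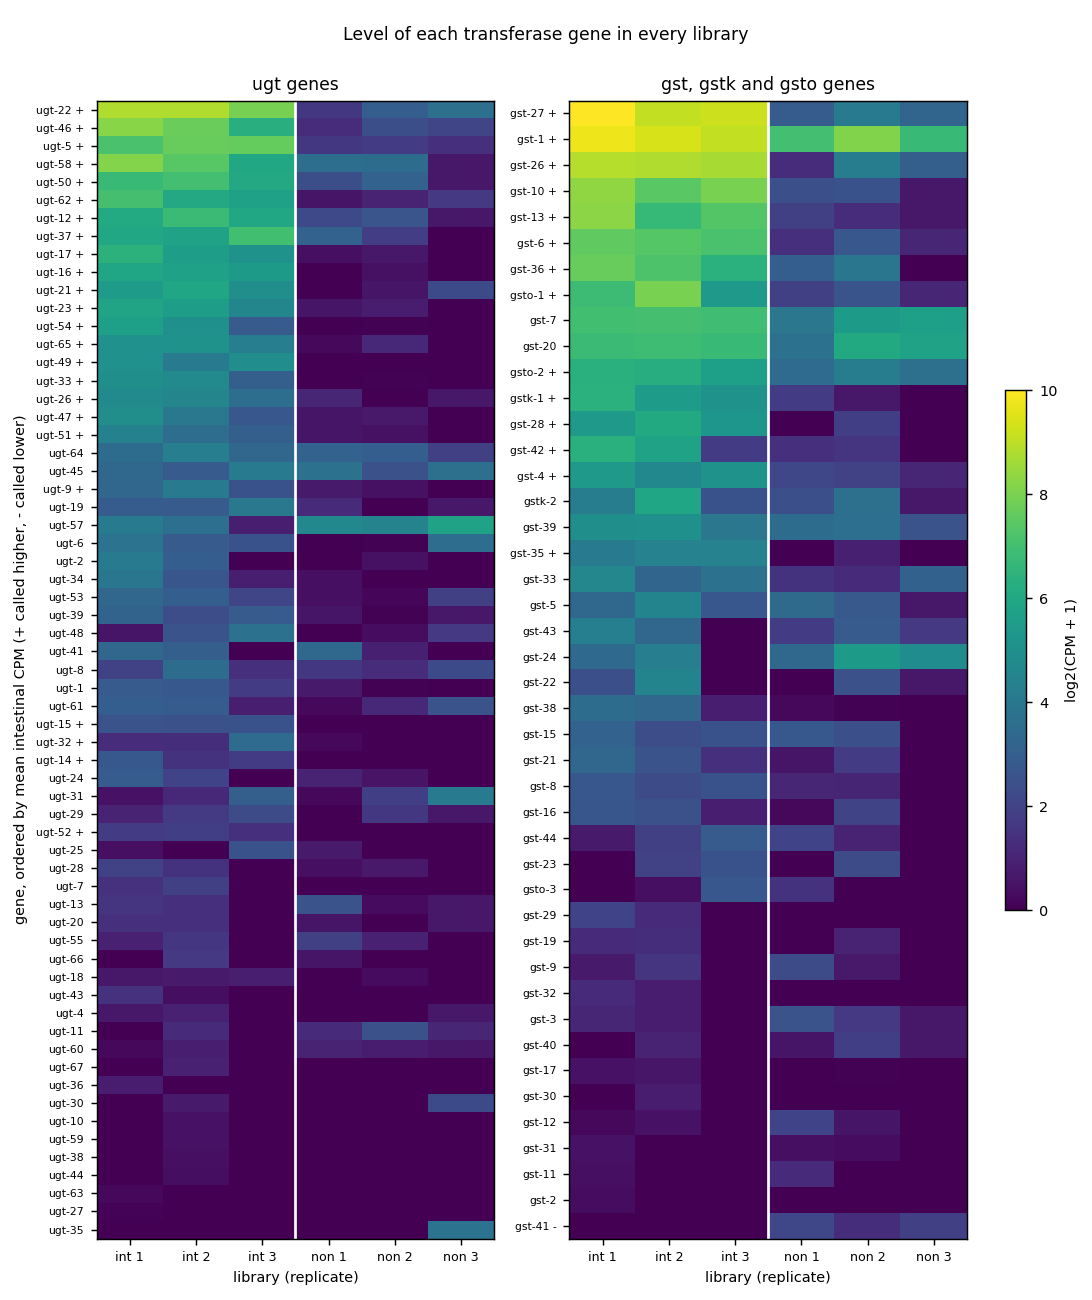
Level of each of the 107 genes in every library as log2(CPM + 1), with genes ordered by their mean intestinal CPM. A plus marks the genes called higher in intestinal libraries (24 ugt, 11 gst, 1 gstk and 2 gsto) and a minus marks gst-41, the 1 gene called lower.

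The ugt counts of intestinal cells were spread over several genes. On average ugt-22 (C08F11.8) held 21.4% of the ugt counts of an intestinal library, ugt-5 (ZC455.6) 11.1%, ugt-46 (B0310.5) 10.4%, ugt-58 (F35H8.6) 8.96% and ugt-50 (T07C5.1) 5.63%. These are shares of 3′ end counts within a family of nearly equal coding lengths, and they are not divided by length. Together these 5 genes held 57.5%. In non-intestinal libraries another gene led, ugt-57 (F01E11.1), with 26.3% of the ugt counts, followed by ugt-45 with 8.01%.

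The 5 leading intestinal ugt genes were all called higher. The level of ugt-22 was 444, 444 and 245 CPM in intestinal replicates 1, 2 and 3, and 2.07, 6.95 and 11.96 CPM in the non-intestinal replicates. Its log2 fold change was 5.81 ± 0.75 (SE, adjusted p = 0.00077). For ugt-5 the levels were 140, 202 and 198 against 2.07, 2.41 and 1.63 CPM (log2 fold change 6.42 ± 0.65, SE, adjusted p = 0.00034). The libraries within each group were close for ugt-5, and ugt-22 was lowest in intestinal replicate 3.

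The level of ugt-46 was 300, 207 and 77.7 CPM in intestinal and 1.44, 4.27 and 3.26 CPM in non-intestinal libraries (log2 fold change 6.01 ± 0.80, SE, adjusted p = 0.0009). For ugt-58 it was 279, 170 and 61.7 against 11.3, 10.7 and 0.544 CPM (log2 fold change 4.44 ± 0.96, SE, adjusted p = 0.0089). For ugt-50 it was 105, 127 and 64.9 against 4.30, 7.91 and 0.544 CPM (log2 fold change 4.45 ± 0.87, SE, adjusted p = 0.0053). Again no intestinal library fell into the non-intestinal range, and intestinal replicate 3 was the lowest of its group for each of these 3 genes. Among all 24 called ugt genes, intestinal replicate 3 was the lowest intestinal library for 18 and the highest for 2.

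For 7 called ugt genes no non-intestinal library exceeded 3 counts, the level that a count of 0 allows. Their fold sets the intestinal mean against 3 counts per library, on average 0.748 CPM, and leaves out the spread of intestinal libraries. It is given as a lower bound only for genes with 0 counts in every non-intestinal library. The gene ugt-49 (AC3.2) gave 387, 286 and 36 counts across the intestinal replicates and 0 in each non-intestinal one. At 25.8 ± 8.27 CPM (SD, n = 3) it was at least 34.5-fold higher (adjusted p = 0.0017). The gene ugt-54 (T25B9.7) had 585, 551 and 8 counts against 0, 1 and 0. At 28.9 ± 21.2 CPM its mean was 38.7-fold above 3 counts per library (adjusted p = 0.0015), which is no bound. Its intestinal replicate 3, at 6.41 CPM, lay far below replicates 1 and 2, at 48.6 and 31.7 CPM.

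The gene ugt-33 (C35A5.2) had 364, 464 and 9 counts against 0, 1 and 0. Its mean was 28.6-fold above 3 counts per library (adjusted p = 0.0016), again no bound. The other 4 of these genes were scarce. The gene ugt-15 (C44H9.1) had 58, 79 and 6 counts and 4.73 ± 0.15 CPM (SD, n = 3), and was at least 6.32-fold higher (adjusted p = 0.014). Its intestinal replicate 3 held 6 counts, where 3 counts are 2.40 CPM, so this small SD is no measure of agreement. The gene ugt-14 (H23N18.2) had 69, 31 and 3 counts and was at least 4.42-fold higher (adjusted p = 0.022). The gene ugt-52 (F56B3.7) had 28, 45 and 2 counts and was at least 2.91-fold higher (adjusted p = 0.025). All 3 had 0 counts in every non-intestinal library.

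The gene ugt-32 (F47C10.6) had its highest level in intestinal replicate 3. Intestinal counts were 17, 26 and 13, which is 1.41, 1.498 and 10.4 CPM, and non-intestinal counts were 1, 0 and 0. Its intestinal mean was 5.94-fold above 3 counts per library (adjusted p = 0.043), and without intestinal replicate 3 its adjusted p was 0.14. With the replicate number as a block the adjusted p was 0.067 for ugt-32 and 0.056 for ugt-52.

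Other ugt genes with a large change had a few non-intestinal counts. The gene ugt-16 (ZC443.6) reached 57.9, 52.0 and 43.3 CPM in intestinal libraries and 0, 0.364 and 0 CPM in non-intestinal ones, with a log2 fold change of 7.90 ± 1.10 (SE, adjusted p = 0.0010). The gene ugt-17 (C08B6.1) reached 85.0, 47.1 and 34.5 against 0.319, 0.545 and 0 CPM (log2 fold change 7.14 ± 0.97, SE, adjusted p = 0.00094). For both, the lowest intestinal library was far above every non-intestinal one.

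The gene ugt-23 (C17G1.3) reached 56.1, 45.8 and 23.2 against 0.478, 0.727 and 0 CPM (log2 fold change 6.33 ± 0.99, SE, adjusted p = 0.0018). The gene ugt-62 (M88.1) reached 133, 64.2 and 52.1 against 0.478, 1.0 and 2.17 CPM (log2 fold change 6.27 ± 0.89, SE, adjusted p = 0.0011). The remaining called ugt genes were ugt-9, ugt-12, ugt-21, ugt-26, ugt-37, ugt-47, ugt-51 and ugt-65, with log2 fold changes from 4.44 for ugt-37 to 5.52 for ugt-65.

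Leaving out 1 library at a time, in 6 fits, 15 of the 24 ugt calls always held. Without intestinal replicate 1 the adjusted p was 0.083 for ugt-26, 0.074 for ugt-47, 0.071 for ugt-51 and 0.068 for ugt-9. Without non-intestinal replicate 2 it was 0.052 for ugt-15, 0.051 for ugt-21, 0.072 for ugt-14 and 0.063 for ugt-9. Dropping non-intestinal replicate 1 gave 0.066 for ugt-14, 0.07 for ugt-32 and 0.082 for ugt-52. Dropping intestinal replicate 2 gave 0.09 for ugt-9, dropping intestinal replicate 3 gave 0.055 for ugt-52, and dropping non-intestinal replicate 3 gave 0.066 for ugt-32.

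A further 18 ugt genes were tested and not called. The nearest was ugt-39 (F10D2.2), at 7.98, 4.21 and 6.41 CPM in intestinal and 0.478, 0.0454 and 0.544 CPM in non-intestinal libraries, whose groups did not overlap (log2 fold change 4.35 ± 1.42, SE, adjusted p = 0.0501). With the replicate block its adjusted p was 0.049. Of the others, ugt-1, ugt-19, ugt-53 and ugt-64 had every intestinal library above every non-intestinal one as well, with log2 fold changes of 4.27, 3.98, 2.94 and 1.10 (adjusted p = 0.067, 0.095, 0.18 and 0.40). The 18 fold changes ran from −2.13 for ugt-11 to 4.35 for ugt-39, and ugt-45 was nearest to 0. The gene ugt-45 (Y37E11AR.5) had 9.23, 6.28 and 16.8 against 12.4, 4.64 and 11.96 CPM (log2 fold change 0.14 ± 0.87, SE, adjusted p = 0.93).

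The gene with the most non-intestinal ugt counts, ugt-57, had the opposite order. It had 24.2, 21.3 and 52.7 CPM in non-intestinal replicates 1, 2 and 3 and 15.7, 11.6 and 0.801 CPM in the intestinal ones, the 1 ugt gene of 63 with every intestinal library below every non-intestinal one, a pattern found in 15.8% of all gene rows. Its log2 fold change of −1.74 ± 0.92 (SE, adjusted p = 0.21) did not pass the test. By comparison, 31 ugt genes had every intestinal library above every non-intestinal one, a pattern found in 14.8% of all gene rows.

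**Figure D3:**
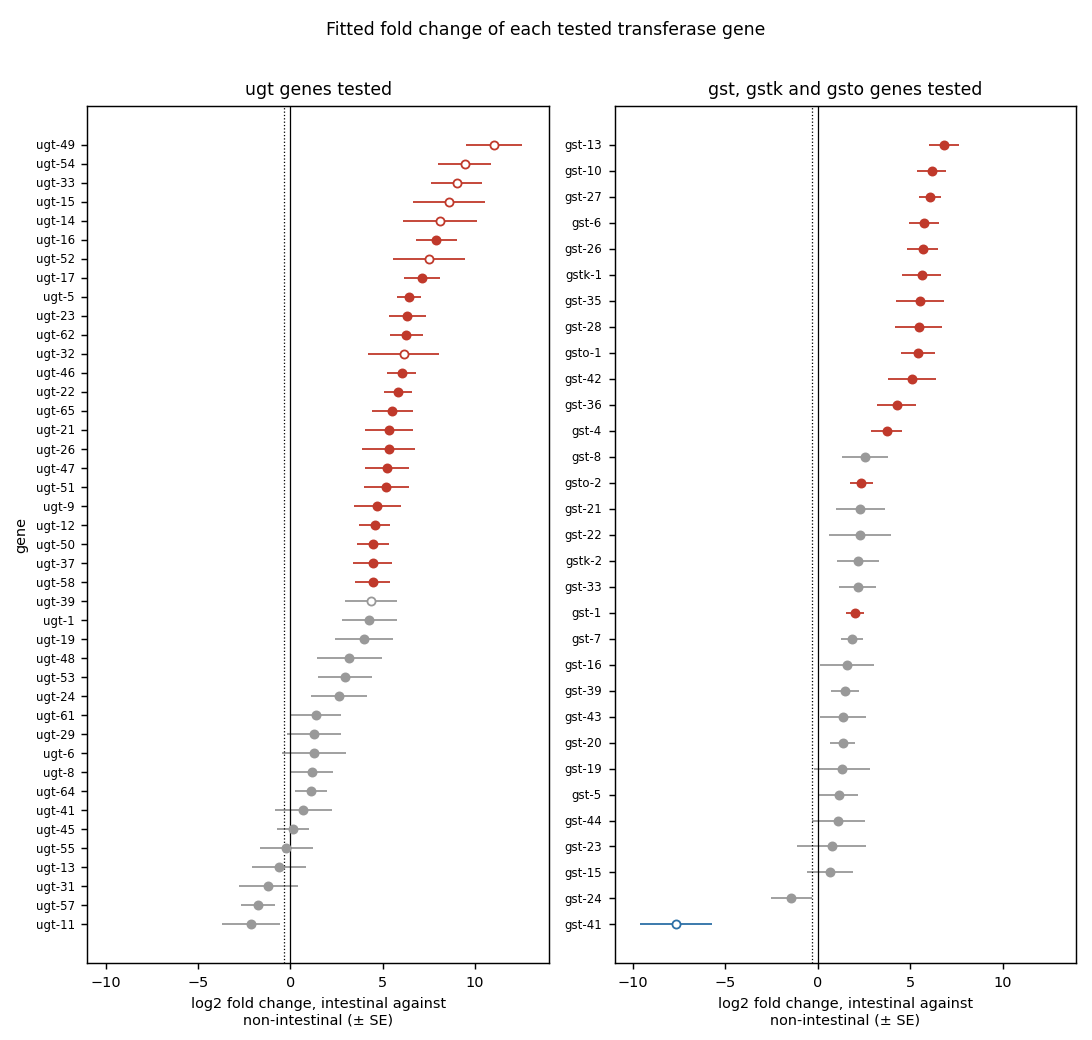
Fitted log2 fold change, intestinal against non-intestinal, with its standard error, for the 42 tested ugt genes (left) and the 31 tested gst, gstk and gsto genes (right). Red points were called higher, the blue point (gst-41) was called lower, grey points were not called, open points have 1 group at the floor of 3 counts so that the fitted size is no bound, and the dotted line is the median of all tested genes.

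Among gst genes fewer genes held most of the counts. On average gst-27 (Y53F4B.30) held 22.9% of the gst counts of an intestinal library, gst-1 (R107.7) 22.3%, gst-26 (Y53F4B.29) 14.7%, gst-10 (Y45G12C.2) 8.11% and gst-13 (T26C5.1) 5.87%, in all 73.8%. In non-intestinal libraries gst-1 alone held 47.1%, and gst-20, gst-7 and gst-24 followed with 12.2%, 10.4% and 7.16%.

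The leading genes other than gst-1 were scarce in the non-intestinal libraries. The level of gst-27 was 1008, 547 and 609 CPM in intestinal replicates 1, 2 and 3 and 6.54, 16.6 and 8.70 CPM in the non-intestinal replicates, with a log2 fold change of 6.07 ± 0.61 (SE, adjusted p = 0.00034). For gst-26 it was 472, 451 and 416 against 1.44, 17.2 and 7.07 CPM (log2 fold change 5.67 ± 0.85, SE, adjusted p = 0.0014). The intestinal libraries agreed closely for gst-26, at 446 ± 28.1 CPM (SD, n = 3).

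The gene gst-10, whose enzyme conjugates the lipid peroxidation product 4-hydroxynonenal, had 325, 173 and 256 CPM in intestinal and 4.46, 4.68 and 0.544 CPM in non-intestinal libraries (log2 fold change 6.17 ± 0.79, SE, adjusted p = 0.0007). The gene gst-13 had 305, 104 and 159 against 2.71, 1.41 and 0.544 CPM (log2 fold change 6.82 ± 0.82, SE, adjusted p = 0.0006). Its spread between intestinal libraries was wide, but the lowest was still far above the non-intestinal values. The gene gst-6 (F11G11.3) had 187, 164 and 138 against 1.59, 5.63 and 1.09 CPM (log2 fold change 5.75 ± 0.79, SE, adjusted p = 0.00098).

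The pi-class gene gst-1 differed from these in its level in the non-intestinal libraries. It had 867, 679 and 536 CPM in intestinal and 127, 278 and 107 CPM in non-intestinal libraries. The groups did not overlap, and the log2 fold change was 2.02 ± 0.50 (SE, adjusted p = 0.017), which without intestinal replicate 1 had an adjusted p of 0.064. The non-intestinal level was 24.6% of the intestinal one, where the 8 intestinal markers had from 0.097% to 7.09%. All 24 called ugt genes lay at or under 4.42%, and of the 11 gst genes called higher, gst-1 and gst-4 (7.25%) lay above the range of the markers. This percentage restates the fold change used for the calls, so low values among called genes follow from the calling. Of the tested genes not called, 15 of 18 ugt and 15 of 15 gst genes lay above that range, with medians of 46.0% and 35.6%.

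The remaining called gst genes had lower counts. The gene gst-36 (R07B1.4) had 202, 147 and 83.3 CPM in intestinal and 7.01, 14.2 and 0 CPM in non-intestinal libraries (log2 fold change 4.27 ± 1.05, SE, adjusted p = 0.016). The gene gst-42 (D1053.1), the zeta-class enzyme that acts as maleylacetoacetate isomerase in tyrosine breakdown, had 81.5, 53.4 and 2.40 against 1.59, 1.91 and 0 CPM (log2 fold change 5.10 ± 1.28, SE, adjusted p = 0.018). Its intestinal replicate 3 held 3 counts. Without intestinal replicate 1 the adjusted p was 0.053 for gst-36 and 0.074 for gst-42.

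The gene gst-4 (K08F4.7), widely used as a reporter of SKN-1 activity under oxidative stress, had 42.0, 24.6 and 32.9 CPM in intestinal and 3.35, 2.77 and 1.09 CPM in non-intestinal libraries (log2 fold change 3.72 ± 0.82, SE, adjusted p = 0.0094). An exon of gst-4 overlaps one of dhs-12 on the same strand, and dhs-12 itself had a log2 fold change of −1.08 (adjusted p = 0.29). The genes gst-28 (Y53F4B.31) and gst-35 (Y1H11.2) had 40.2, 66.7 and 37.7 CPM and 16.95, 20.5 and 20.8 CPM in intestinal libraries. Both had 0 counts in non-intestinal replicates 1 and 3, with 57 counts of gst-28 and 19 of gst-35 in replicate 2, and log2 fold changes of 5.45 and 5.54 (adjusted p = 0.013 and 0.012).

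The gene gst-41 (R13D7.7) was the 1 conjugating gene called lower. It had 0 counts in every intestinal library, and the non-intestinal counts were 21, 33 and 5, which is 3.35, 1.499 and 2.72 CPM. Against the floor of 3 counts per intestinal library it was at least 2.68-fold lower (adjusted p = 0.023). The call was held by 2 of the 6 fits that left out 1 library, with an adjusted p of 0.10 or 0.089 when intestinal replicate 1 or 2 was dropped and 0.07 or 0.053 when non-intestinal replicate 1 or 2 was. With the replicate block it was 0.051, and without the filter 0.057. This gene passed the filter through its non-intestinal counts alone.

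Among the 15 gst genes tested and not called, the more abundant ones in non-intestinal libraries stood out. The gene gst-7 (F11G11.2) had 124, 131 and 121 CPM in intestinal and 14.7, 42.4 and 48.4 CPM in non-intestinal libraries, without overlap, and a log2 fold change of 1.84 ± 0.61 (SE, adjusted p = 0.053). With the replicate block its adjusted p was 0.026. The gene gst-20 (Y48E1B.10) had 110, 118 and 108 against 12.4, 67.1 and 52.7 CPM (log2 fold change 1.35 ± 0.66, SE, adjusted p = 0.18). The intestinal libraries of both genes agreed closely, and the spread lay in the non-intestinal libraries. The gene gst-24 (F37B1.1) had more non-intestinal than intestinal CPM on average, with 9.09, 42.1 and 27.7 against 9.56, 18.3 and 0 CPM, and a log2 fold change of −1.44 ± 1.10 (SE, adjusted p = 0.38).

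The kappa and omega genes also differed among themselves. The gene gstk-1 (ZK1320.1) had 82.3, 44.1 and 34.5 CPM in intestinal and 2.39, 0.545 and 0 CPM in non-intestinal libraries (log2 fold change 5.63 ± 1.06, SE, adjusted p = 0.0046), and this call held whichever library was left out. The gene gstk-2 (D2024.7) had 17.3, 57.6 and 4.81 against 4.46, 12 and 0.544 CPM. These ranges overlapped, and its log2 fold change of 2.18 ± 1.12 (SE, adjusted p = 0.19) did not pass.

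The gene gsto-1 (C29E4.7) had 116, 252 and 40.9 CPM in intestinal and 2.71, 5.04 and 1.09 CPM in non-intestinal libraries (log2 fold change 5.43 ± 0.91, SE, adjusted p = 0.0024). For gsto-2 (C02D5.3) it was 80.4, 74.2 and 49.7 against 10.4, 17.4 and 11.96 CPM (log2 fold change 2.36 ± 0.63, SE, adjusted p = 0.022). Like gst-1, gsto-2 kept a sizeable level in the non-intestinal libraries, at 19.4% of the intestinal one. Its adjusted p was 0.085 or 0.062 when intestinal replicate 1 or 2 was dropped, and 0.055 when non-intestinal replicate 1 was. The gene gsto-3 (K10F12.4) had 0, 6 and 7 counts in intestinal and 11, 0 and 0 in non-intestinal libraries and was not tested.

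Many of the genes lie beside relatives on the chromosome, and genes called higher stood beside others that were tested and not called in 3 of 10 ugt groups and 2 of 4 gst groups. Positions are those of RefSeq on WBcel235, the build that the submitters' processing notes name. With a gap of at most 10 kb between neighbours of a family, 33 of the 63 ugt genes lay in 10 groups and 22 of the 39 gst genes in 4 groups. Of the ugt genes, 10 of the 33 in groups and 14 of the 30 others were called higher. Of the gst genes, 6 of 22 in groups and 5 of 17 others were called higher. Chromosome V held 38 of the 63 ugt genes, 13 of them called higher, and chromosome II held 22 of the 39 gst genes, 6 of them called higher.

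The group at chrII:15163817-15185389 held 8 gst genes. The gene gst-27 spans chrII:15164890-15165708 and gst-26 spans chrII:15163817-15164553, both on the minus strand with 2 exons. Of this group gst-26, gst-27, gst-28 and gst-35 were called higher, gst-39 was tested and not called, and gst-29, gst-31 and gst-32 were too low to test. The gene gst-39 (Y53F4B.33) had 30.3, 31.5 and 14.4 CPM in intestinal and 10.5, 11.7 and 4.89 CPM in non-intestinal libraries (log2 fold change 1.48 ± 0.75, SE, adjusted p = 0.19). Levels within the group thus ran from 721 ± 250 CPM for gst-27 to 0.139 ± 0.24 CPM for gst-31 in intestinal libraries (SD, n = 3).

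In the group at chrII:13608154-13630790, with gst-20, gst-24, gst-15, gst-12, gst-16, gst-19 and gst-17, 0 of 7 genes were called and 5 were tested. DESeq2 called 14 gst genes higher in all, against 11 by edgeR. In the group at chrII:4879891-4893573, gst-6 was called higher while its neighbours gst-7 and gst-8 were not. The gene gst-8 had 5.57, 4.03 and 4.81 against 1.12, 1.05 and 0 CPM (log2 fold change 2.56 ± 1.26, SE, adjusted p = 0.18).

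Among the ugt groups, 4 of 10 had no called gene. At chrV:4887165-4911399, ugt-9, ugt-12 and ugt-14 of 8 genes were called higher, 3 others were tested and not called, and ugt-10 and ugt-67 were too low to test. The gene ugt-12 (T19H12.9) had 68.7, 111 and 60.9 CPM in intestinal and 3.67, 5.23 and 0.544 CPM in non-intestinal libraries. Its neighbour ugt-11 (T19H12.10) had 0, 1.33 and 0 CPM against 1.28, 4.64 and 1.09 CPM (log2 fold change −2.13 ± 1.58, SE, adjusted p = 0.37). At chrV:7141923-7169281, ugt-37 was called higher and ugt-39 and ugt-41 were not. The pair ugt-47 and ugt-17, at chrV:10096305-10104964, was the 1 group of the 14 in which every gene was called higher.

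**Figure D4:**
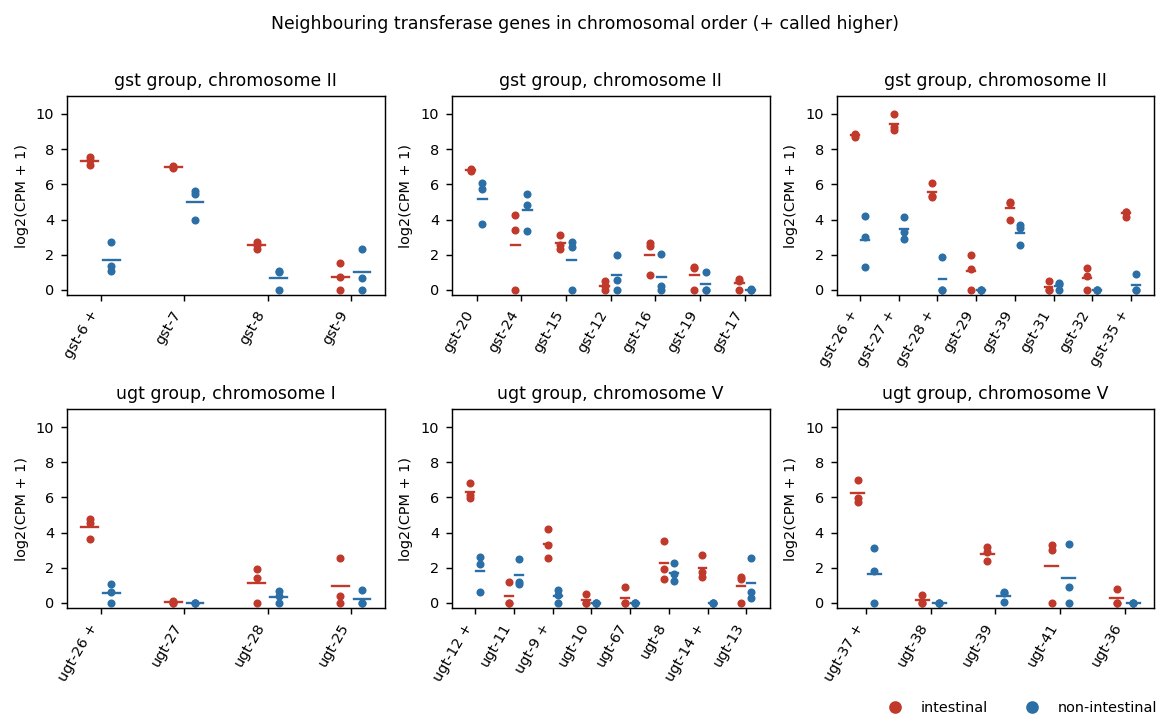
Level of neighbouring genes as log2(CPM + 1), for the 6 groups with at least 4 genes, in their order along the chromosome. Points are libraries, bars are group means of the plotted values, and a plus marks genes called higher. Called genes stand beside genes not called or too low to test in 5 of the groups shown, and the gst group from gst-20 to gst-17 has none called.

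Neighbouring paralogs are similar in sequence, and how reads shared between them were counted is not given in the sources used here, so values of single genes within a group are uncertain. In the annotation 24 of the 107 genes share an exon position with another gene, 20 of them on the opposite strand, and strand use is not stated. Among the called genes these are ugt-21, ugt-22, ugt-47, ugt-50, gst-36 and gsto-1 on the opposite strand, and gst-4 and ugt-37 on the same strand, the latter with ugt-40.

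Genes that feed, control or follow conjugation were counted from 6 lists, whose counts stand beside the 13.5% of all tested genes called higher and the 7.64% called lower. In the list of glutathione supply, 3 of 5 tested genes were called higher and 0 lower, all 3 in the route from homocysteine to cysteine. The cystathionine gamma-lyase gene cth-1 had 102, 110 and 127 CPM in intestinal and 2.87, 4.68 and 1.09 CPM in non-intestinal libraries (log2 fold change 5.19 ± 0.74, SE, adjusted p = 0.0011). Its relative cth-2 had 187, 142 and 84.1 against 30.9, 35.4 and 37.0 CPM (log2 fold change 2.00, adjusted p = 0.027), and the cystathionine beta-synthase gene cbs-1 had 50.8, 43.8 and 126 against 9.56, 17.1 and 11.4 CPM (log2 fold change 2.52, adjusted p = 0.026). Of the 8 genes listed, gcs-1, cbs-2 and chac-1 were not found among the gene rows, so the test does not cover them. The genes that complete and recycle glutathione were not called. The log2 fold change was 1.84 for the synthetase gss-1 (adjusted p = 0.15) and 1.52 for the reductase gsr-1 (adjusted p = 0.12). The call of cth-1 held whichever library was left out. For cbs-1 the adjusted p was 0.0502, 0.07 and 0.062 when intestinal replicate 1, intestinal replicate 3 or non-intestinal replicate 1 was dropped, and for cth-2 it was 0.12 and 0.071 when intestinal replicate 1 or 2 was.

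In the list of UDP-glucuronate supply, which covers only 1 of the sugar donors named above, 1 of 3 tested genes was called. The UDP-glucose dehydrogenase gene sqv-4, whose enzyme makes UDP-glucuronic acid, had 9.89, 15.3 and 15.2 CPM in intestinal and 8.29, 8.72 and 3.81 CPM in non-intestinal libraries (log2 fold change 0.93 ± 0.82, SE, adjusted p = 0.45). The UDP-sugar transporter gene sqv-7 had a log2 fold change of −0.88 (adjusted p = 0.41). The called gene was rml-1 (K08E3.5), with 287, 246 and 207 against 74.8, 64.1 and 21.2 CPM (log2 fold change 2.20 ± 0.58, SE, adjusted p = 0.022), and without intestinal replicate 1 its adjusted p was 0.075.

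Of 11 tested regulators, 3 were called higher and 0 lower, where 13.5% of all tested genes were called higher. The SKN-1 gene itself, skn-1, had 495, 186 and 89.7 CPM in intestinal and 256, 136 and 179 CPM in non-intestinal libraries, with overlap and a log2 fold change of 0.44 ± 0.62 (SE, adjusted p = 0.65). Its repressor gene wdr-23 had a log2 fold change of 0.84 (adjusted p = 0.45). The xenobiotic nuclear receptor gene nhr-8 had 116, 55.9 and 47.3 against 1.12, 1.59 and 1.63 CPM (log2 fold change 5.66 ± 0.79, SE, adjusted p = 0.0010). The zinc finger gene pqm-1 (log2 fold change 5.21, adjusted p = 0.0006) and the hypoxia factor gene hif-1 (log2 fold change 1.66, adjusted p = 0.041) were called as well. For hif-1 the adjusted p was 0.11 or 0.09 when intestinal replicate 1 or 2 was dropped. With the replicate block the Mediator subunit gene mdt-15 was also called, at an adjusted p of 0.028.

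Of 16 tested export pumps, 10 were called higher and 0 lower, where 13.5% of all tested genes were called higher. The list had 21 pumps among the gene rows, tested or not, beside 8.53% of all gene rows called higher. For pgp-1, pgp-3, pgp-6, pgp-11, pgp-12 and pgp-13 every non-intestinal library lay under the filter's minimum of 0.915 CPM. These genes entered the test through their intestinal level alone. From 7 to 10 were called higher when 1 library was left out. Pumps of these families carry compounds across membranes, conjugates among them, and the calls do not show which compounds were carried. Of the mrp family, the conjugate exporters, mrp-4 had 160, 156 and 84.1 CPM in intestinal and 1.91, 2.64 and 1.09 CPM in non-intestinal libraries (log2 fold change 6.05 ± 0.73, SE, adjusted p = 0.0006). The heme exporter gene mrp-5 had 189, 208 and 135 against 17.2, 27.2 and 33.2 CPM (log2 fold change 2.78 ± 0.56, SE, adjusted p = 0.0060). The other mrp genes tested, mrp-1, mrp-2, mrp-3, mrp-6 and mrp-7, were not called.

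Of the P-glycoprotein genes, 8 were called higher, namely pgp-1, pgp-2, pgp-3, pgp-6, pgp-9, pgp-11, pgp-12 and pgp-13. The gene pgp-12 had 0 counts in every non-intestinal library and was at least 8.49-fold higher. The gene pgp-13 had 3.57, 7.14 and 32.05 CPM in intestinal libraries and 0, 1 and 0 counts in non-intestinal ones. Its intestinal mean, raised by replicate 3, was 19.1-fold above 3 counts per library, which is no bound. The call of pgp-11 (adjusted p = 0.048) held only without non-intestinal replicate 3, with adjusted p from 0.07 to 0.15 when any other library was dropped. For pgp-6 (adjusted p = 0.028) the adjusted p was 0.092 without intestinal replicate 3 and 0.094 without non-intestinal replicate 1, and 3 of the 6 fits did not test it. For pgp-2 (adjusted p = 0.025), dropping intestinal replicate 3 gave 0.076 and dropping non-intestinal replicate 2 gave 0.07. The gene pgp-14 had 9.39, 23.7 and 0.801 CPM in intestinal and 32.5, 74.3 and 31.0 CPM in non-intestinal libraries. Its log2 fold change of −1.97 ± 0.94 (SE, adjusted p = 0.17) did not pass.

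Of 19 tested glutathione and redox enzymes outside the families, 5 were called higher and 1 lower, where 13.5% and 7.64% of all tested genes were. The peroxiredoxin gene prdx-2 had 1873, 1846 and 1075 against 460, 713 and 373 CPM (log2 fold change 1.63 ± 0.42, SE, adjusted p = 0.020). The glutathione peroxidase homologs split, as gpx-1 (log2 fold change 4.30, adjusted p = 0.014) and gpx-7 (at least 10.7-fold, adjusted p = 0.0087) were higher and gpx-4, with 0 counts in every intestinal library, was lower (adjusted p = 0.017). The catalase gene ctl-2 (log2 fold change 5.25, adjusted p = 0.0055) and the superoxide dismutase gene sod-1 (log2 fold change 1.53, adjusted p = 0.044) were higher too. The gene gpx-7, with 0 counts in every non-intestinal library, passed the filter through its intestinal level alone, and gpx-4 through its non-intestinal level alone. Whichever library was left out, gpx-7 and ctl-2 kept their calls. The call of sod-1 held only without non-intestinal replicate 2, with adjusted p from 0.054 to 0.13 when any other library was dropped. Without intestinal replicate 1 the adjusted p was 0.065 for prdx-2, 0.053 for gpx-1 and 0.073 for gpx-4, and without intestinal replicate 2 it was 0.062 for prdx-2 and 0.06 for gpx-4. In the list of other conjugating enzymes, comt-3 of 2 tested genes was called higher (log2 fold change 3.50, adjusted p = 0.010), and without intestinal replicate 1 its adjusted p was 0.058.

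**Figure D5:**
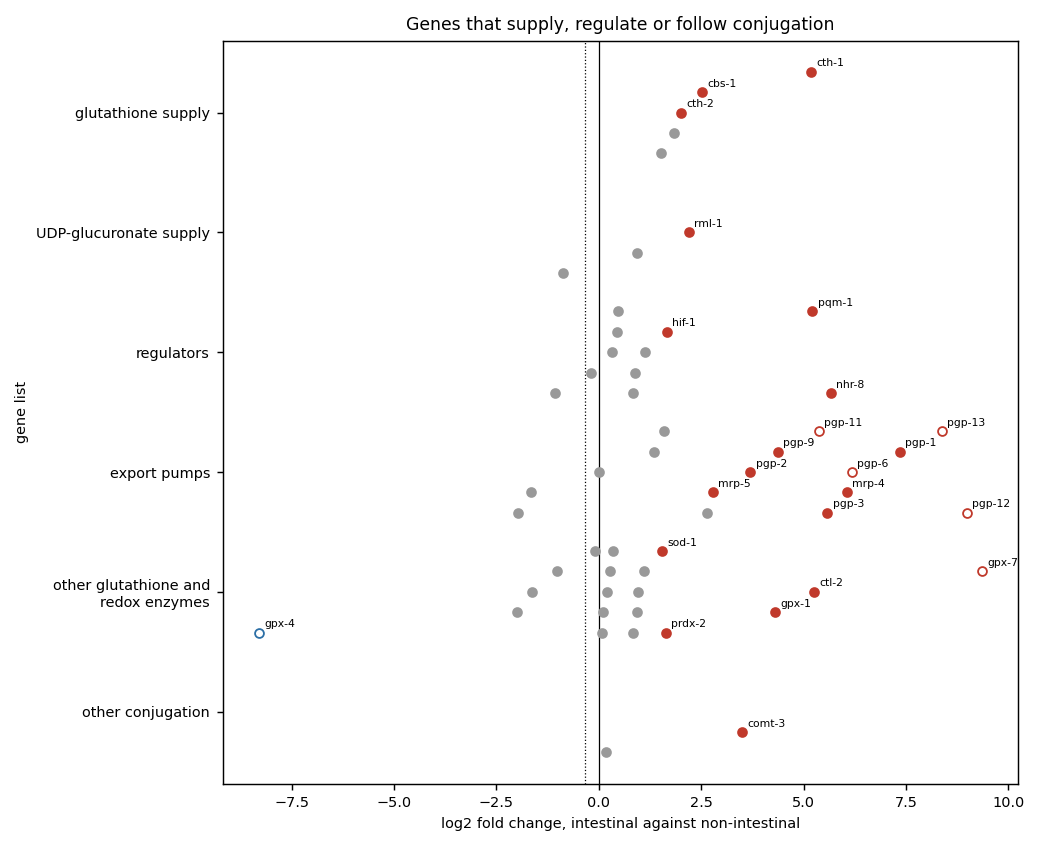
Fitted log2 fold change, intestinal against non-intestinal, of the tested genes of 6 lists. Red points were called higher, the blue point was called lower, grey points were not called, open points have 1 group at the floor of 3 counts, points are set apart vertically for legibility, and the dotted line is the median of all tested genes. Export pumps have 10 genes called higher of 16 tested.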

How the data were processed

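RNA was measured in 3 intestinal and 3 non-intestinal libraries. What the authors deposited is a count table of unnormalized whole numbers. Per the submitters' processing notes, STARsolo 2.7.10a and the build WBcel235 (ce11) were used, with no role given. The annotation, strand use and any collapse of molecular identifiers are not given in the sources used here. Counts may hold amplification copies, so floors cover counting error only.

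The table had 15472 rows, of which 14605 were worm genes. The other rows were 825 with names starting with RIT, 41 spike-in RNAs and the reporter, made up 0.377% to 0.796% of the counts, and stayed out of totals and tests. Symbols came from RefSeq's WBcel235 table, and strands, exons and overlaps from the Ensembl annotation of the same assembly. Sequences of the genes are not used here, so promoter motifs were not searched.

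The main test was edgeR's quasi-likelihood test (version 4.0.16, R 4.3.3), with robust estimation, TMM and group as the only term, after filterByExpr (minimum count 10, minimum total 15). It was fitted on all genes and tested on simulated data. An SE is the log2 fold change over the root of F. In levels, a count of 0 allows 3 counts, from 0.136 CPM in non-intestinal replicate 2 to 2.40 CPM in intestinal replicate 3. Adjusted p-values are edgeR's unless DESeq2 1.42.0 is named. Alternatives are given in the closing section.

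The labels call the libraries biological replicates. No pair within a group was close enough to be 1 library deposited more than once (chi-square per degree of freedom 34.8 to 195). Replicate numbers occur in both groups. Same-numbered libraries deviated together (correlation of deviations in log2 CPM 0.278, 0.157 and 0.279), which met the condition set for a pairing, and other pairs ran from −0.256 to 0.0695. Depth follows the same numbers, and the labels name no shared preparation. The main test has no replicate block, and the fit with it is an alternative.

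Values in every library are given by a rule: up to 12 called genes of a family with the largest changes, the 5 of each family with the highest mean CPM, those called lower, and the gstk and gsto genes. Called genes of the lists are named, some with values in every library. Other genes given with values, such as ugt-57, ugt-45, gst-24, gst-39 and skn-1, were picked with their values in view. The genes, lists and tests were chosen with earlier results of these data known.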

Additional observations from a re-analysis of the deposited data

How the results depend on the processing

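Of all genes, 1949 were called. The count was 3298 under DESeq2 and 842 at an adjusted p under 0.01, and from 986 (without intestinal replicate 1) to 1913 (without non-intestinal replicate 3) when 1 library was left out. The 24 ugt genes called higher became 15 at equal depth, where each library had 1222704 counts, and 14 at an adjusted p under 0.01. Leaving out 1 library gave from 17 to 25. The 11 gst genes called higher became 6 at 0.01 and from 8 to 14 without 1 library. The gsto and gstk calls were 3, and 2 or 3 without 1 library. The single lower gst call, gst-41, was 0 at equal depth, with at least 10 counts in 3 libraries, without a filter, at 0.01, and with the replicate block, and 0 or 1 without 1 library. Without a filter 1 ugt gene was called lower. With the replicate block 2300 genes were called, with 23 ugt and 12 gst genes higher; ugt-32, ugt-52 and gst-41 lost their calls and ugt-39 and gst-7 gained one. No called gene reversed its direction in any alternative. Of the 38 genes called higher, 38 were also called by DESeq2, 37 under library totals alone, 36 under the block, 36 without a filter, 31 with at least 10 counts in 3 libraries, 28 at equal depth, 22 at 0.01, from 27 (without intestinal replicate 1) to 37 without 1 library, and 37 without replicate 3 of both groups, an alternative chosen after seeing the data. The causes of these changes were not tested. A count of 0 allows 2.40 CPM in intestinal replicate 3 and 1.63 CPM in non-intestinal replicate 3.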

Other observations

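Some genes too low for the test showed counts in single libraries. The gene ugt-35 had 24 counts in non-intestinal replicate 3 and 0 in the other libraries, and was the ugt gene called lower when no filter was applied (adjusted p = 0.023). Without a filter ugt-2, ugt-34 and gst-38 were called higher (adjusted p = 0.017, 0.019 and 0.013), with 196, 121 and 0 counts of ugt-2, 173, 94 and 1 of ugt-34, and 128, 155 and 1 of gst-38 in intestinal replicates 1, 2 and 3. Their non-intestinal counts were 0, 8 and 0, then 2, 0 and 0, and then 1, 1 and 0.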
